A study of Homo sapiens with 3 samples.

Results

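Expression of 10 glycosyltransferase genes that build and cap mucin sugar chains was followed in LS174T-tetON-NICD cells. The genes are FUT1, FUT2, FUT3, FUT4, FUT6, ST6GALNAC1, B3GNT6, C1GALT1, GALNT12 and GCNT3, found by their symbol or an older alias among the 17559 genes named on the arrays. They were covered by 12 probes, and all 10 were measured through 11 of these. They were picked with their ratios on these same arrays known, so every ratio below is a description and carries no test.

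LS174T is a human colon carcinoma line that makes mucin. The derivative used here expresses NICD when doxycycline is added, and NICD is the part of a Notch receptor that enters the nucleus and switches on target genes. Cells received TNF at 50 ng/ml for 24 h, doxycycline at 100 ng/ml for 24 h, or both agents for 24 h. Each was set against untreated cells of the same derivative, which carry the construct too. Each treated RNA was labelled with Cy3 and hybridised with control RNA in Cy5 on 1 array, so there was 1 culture and 1 array per condition. No array had the dyes swapped, and no cells without NICD received doxycycline, so effects of doxycycline itself and of NICD cannot be told apart.

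Mucin O-glycans start when a GALNT enzyme places N-acetylgalactosamine on serine or threonine. C1GALT1 or B3GNT6 then extends this sugar into different core structures, GCNT3 adds branches, and ST6GALNAC1 can instead cap the first sugar with sialic acid, which gives the sialyl-Tn antigen. Fucosyltransferases finish the chains: FUT1 and FUT2 make the H antigen by adding fucose to terminal galactose, and FUT3, FUT4 and FUT6 add fucose to N-acetylglucosamine to make Lewis structures. In the gut, these terminal sugars coat the mucus and the cell surface and serve microbes as food and as binding sites.

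Signals are spot intensities less the mean of the blank spots on the same array. Ratios are log2 of treated over control after background correction with an added offset of 50 and loess normalisation, so that they understate changes of dim genes. Over probes for which the authors deposited a ratio, the treated channel was brighter than the control channel by a median factor of 1.82 with doxycycline. The factor was 1.87 with both, against 0.942 with TNF alone. Loess took this difference out, whether it came from dye, labelling or RNA, which cannot be told apart here. A treated signal equal to its control can therefore mean a ratio below 0. The treated channel of the TNF array was also dim: its median signal over all probes was 18.6, against 55.7 with doxycycline and 61.7 with both. The control channels of the same arrays had medians of 35.6, 30.7 and 30.6. Where a gene had several probes (1747 genes), the SD of their log2 ratios was 0.739 with TNF, 0.241 with doxycycline and 0.295 with both. These SDs serve as the yardstick below, since there was no replicate array. They come from probes on the same arrays, so they leave out variation between cultures, labellings and arrays. A difference larger than such an SD is therefore not shown to be repeatable. Of the colon epithelial markers, 10 of 10 on the arrays were above background in every channel, EPCAM and KRT18 among them. Of 11 markers of other cell types, 5 were above background in every channel (CD68, LYZ, PDGFRB, VWF and INS), 3 in some channels (CD3E, COL3A1 and ALB) and 3 in none (PTPRC, COL1A1 and COL1A2). The summed treated signal of these 11 was 484 with TNF, 718 with doxycycline and 1463 with both, against 489, 412 and 439 in the controls, and their part in the results was not tested. CD68 and LYZ made up most of these sums and went opposite ways with TNF, with treated signals of 381 and 27.4 against 128 and 285 in the control. The Notch targets HES5 (3.13) and HES4 (2.41) were high in log2 ratio with doxycycline, and the TNF targets TNFAIP3 (3.48) and BIRC3 (4.69) with TNF.

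FUT1 and FUT2, the fucosyltransferases of the H antigen, stood highest of the 10 genes when both agents were given. FUT1 had a signal of 298 with TNF, 1346 with doxycycline and 2714 with both, against 175, 172 and 186 in the control channels of the same arrays. The treated signals thus lay above all 3 control signals, which averaged 177 ± 7.24 (SD, n = 3 hybridisations). The share of all genes set apart in this way is not given here. The labels do not say whether the 3 control channels hold 1 RNA. In RNA from whole cultures, more expressing cells and more RNA per cell cannot be told apart. The log2 ratios were 0.56 with TNF, 1.85 with doxycycline (3.60-fold) and 2.76 with both (6.77-fold). Both agents over doxycycline gave a log2 difference of 0.91, and the ratio with both lay 0.34 above the sum of the single ratios, within the probe SD of 0.856 for that quantity.

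FUT2, the secretor gene, had a treated signal of 98.9 with doxycycline and 358 with both, against control signals of 17.4 and 22.7. With TNF alone the treated spot was not well above background, against a control signal of 29.3. The gene was thus bright in treated cells only on the arrays that had doxycycline. The log2 ratios were 0.73 with doxycycline (1.66-fold) and 1.85 with both (3.60-fold), and FUT2 was at least 1.45-fold lower with TNF alone at these settings (fitted log2 ratios of -1.38 to -0.38 over the settings tried). With an offset of 16 in place of 50 they were 1.12 and 2.42. The log2 ratios that the authors deposited, made without an offset or loess, were 1.65 with doxycycline and 3.08 with both, and the authors' value of FUT1 with both was 2.97. Both agents over doxycycline gave FUT2 a log2 difference of 1.11, more than the probe SD of 0.222 for that difference. Over the settings tried it lay between 0.93 and 1.43, so some of them left it short of 2-fold.

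FUT1 and FUT2 lie near each other on chromosome 19. The 250 bases before their annotated starts are shown because both genes were higher with both agents. NICD acts with the DNA-binding protein RBPJ, and TNF acts through NF-kB. Capitals mark matches on either strand to TGGGAA, the core bound by RBPJ, or to GGGNNNNNCC, a loose NF-kB motif. The motifs can overlap where TGGGAA is followed, 3 bases further on, by CC. The sequences are from RefSeq, build GRCh38.p14, which lists several windows per gene where transcripts start at different places. FUT1 had 2 of them.
FUT1 window 1, chr19:48752642-48752891, minus strand: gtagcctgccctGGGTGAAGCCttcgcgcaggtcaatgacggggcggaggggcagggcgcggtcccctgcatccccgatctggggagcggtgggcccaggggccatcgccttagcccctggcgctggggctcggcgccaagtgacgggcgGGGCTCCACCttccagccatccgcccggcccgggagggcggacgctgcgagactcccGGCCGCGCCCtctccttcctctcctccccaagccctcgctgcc
FUT1 window 2, chr19:48755359-48755608, minus strand: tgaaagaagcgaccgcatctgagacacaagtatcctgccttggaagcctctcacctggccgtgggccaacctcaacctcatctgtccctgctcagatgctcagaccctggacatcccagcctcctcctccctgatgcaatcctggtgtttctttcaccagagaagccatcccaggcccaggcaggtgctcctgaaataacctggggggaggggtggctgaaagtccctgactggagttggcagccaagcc
FUT2, chr19:48695721-48695970, plus strand: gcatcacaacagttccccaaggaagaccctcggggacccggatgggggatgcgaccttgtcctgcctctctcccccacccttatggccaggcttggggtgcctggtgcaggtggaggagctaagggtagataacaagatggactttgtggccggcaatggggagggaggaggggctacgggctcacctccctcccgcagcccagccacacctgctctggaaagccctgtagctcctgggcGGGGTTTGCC
The first FUT1 window held 3 matches to the NF-kB motif and the second held none, while FUT2 held 1, ending at the last base before the start. None of these windows held TGGGAA. The NF-kB motif is common: it occurred in 54.4% of all 35093 promoter windows of this length, and TGGGAA in 20.9%. Which start the cells use was not measured, and no binding was measured here.

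**Figure D1:**
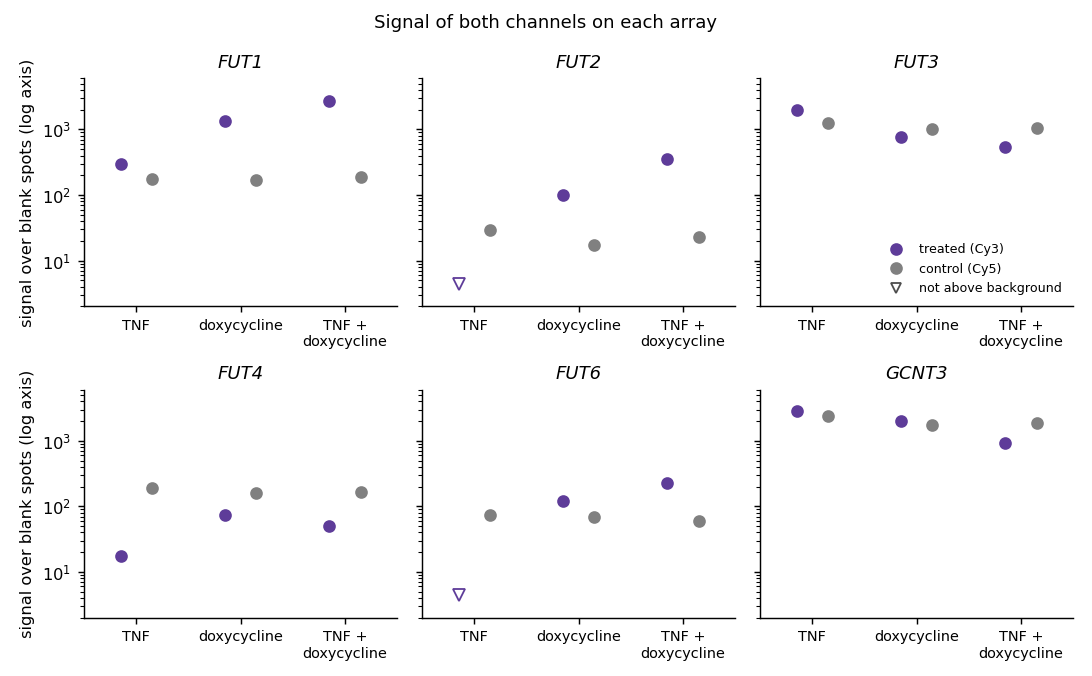
Signal over the blank spots (log axis) of 6 genes on each array, with the treated channel left of the control channel. FUT1 treated signals reach 2714 with both agents, FUT3 and GCNT3 treated signals are lowest there, and open triangles at the detection limit mark the treated FUT2 and FUT6 spots that were not well above background on the TNF array.

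FUT3, the Lewis gene, went the other way from FUT1. Its treated signal was 1974 with TNF, 755 with doxycycline and 535 with both, against control signals of 1274, 1016 and 1052. Before normalisation, the treated signal lay above the control with TNF and below it on both arrays with doxycycline. On the arrays with doxycycline the treated channel was the brighter one by the median of all probes. With TNF, loess took out the raw excess of 1.55-fold. The log2 ratios were 0.01 with TNF, -1.24 with doxycycline (2.36-fold lower) and -1.68 with both (3.20-fold lower). Both agents over TNF gave a log2 difference of -1.69, and both over doxycycline gave -0.44, against a probe SD of 0.222 for that difference. With the local background of the scanner, the doxycycline ratio turned to 0.08 while the ratio with both stayed at -1.82.

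FUT6 neighbours FUT3 on chromosome 19 and encodes a plasma-type enzyme of the same group. Its treated signal was 121 with doxycycline and 229 with both, against control signals of 68.6 and 60.3, and the treated spot was not well above background with TNF, against 72.9 in the control. The log2 ratios were 0.04 with doxycycline and 0.72 with both, and FUT6 was at least 2.04-fold lower with TNF alone at these settings. That figure takes the dim spot at its own fitted value, and over the settings tried the log2 ratio lay between -1.84 and -0.69, in some of them short of 2-fold. FUT6 and FUT3 thus differed in direction on the array of both treatments, by more than the probe SD. FUT3, FUT5 and FUT6 are close paralogs, and the probe sequences were not used here, so shared signal between their probes was not tested. The FUT5 probe stayed dim, with treated signals of 9.36 with TNF, 15.8 with doxycycline and 24.4 with both, against control signals of 14.1, 14.6 and 12.2.

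FUT4, the myeloid-type enzyme that makes the Lewis x epitope, was lower than its control on all 3 arrays. Its treated signal was 17.3 with TNF, 72.8 with doxycycline and 50.1 with both, against 188, 159 and 164 in the control channels. Each treated signal lay below all 3 control signals, but the treated signals come from different treatments. The share of all genes set apart in this way is not given here. The log2 ratios were -1.56, -1.26 and -1.58 in the same order of treatments, and both agents over doxycycline gave -0.33. Control and treated RNA carried the same dyes on every array, so a dye effect of this probe and a response shared by all treatments cannot be told apart. With the local background, the ratio with both was -0.21.

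The 250 bases before the starts of FUT3 and of GCNT3, the branching enzyme described next, are shown for comparison with FUT1 and FUT2, since both genes were lower with both agents.
FUT3, chr19:5851450-5851699, minus strand: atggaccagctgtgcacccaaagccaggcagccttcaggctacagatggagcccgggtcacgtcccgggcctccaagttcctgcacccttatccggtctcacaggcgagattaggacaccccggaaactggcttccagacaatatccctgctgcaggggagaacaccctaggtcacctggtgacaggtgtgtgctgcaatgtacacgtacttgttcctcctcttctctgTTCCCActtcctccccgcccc
GCNT3, chr15:59611533-59611782, plus strand: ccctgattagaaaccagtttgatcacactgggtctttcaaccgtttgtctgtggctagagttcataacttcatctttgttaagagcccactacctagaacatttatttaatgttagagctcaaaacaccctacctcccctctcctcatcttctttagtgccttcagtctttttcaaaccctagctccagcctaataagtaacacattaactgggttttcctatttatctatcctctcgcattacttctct
FUT3 held 1 match to TGGGAA, on the opposite strand close to the start, and GCNT3 held none to either motif. FUT4, also lower with both agents but not shown, held 1 match to the NF-kB motif. FUT6 and GALNT12, within 2-fold of control with both agents, held 3 and 2. The 3 matches of FUT6 include 1 stretch that was counted on each strand. Of the 9 windows found for 8 of the 10 genes, 2 held TGGGAA and 5 held the NF-kB motif. ST6GALNAC1 and B3GNT6 had no window in the table.

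GCNT3, which makes the core branches of gut mucins, was the lowest of the 10 genes with both agents. Its treated signal was 2804 with TNF, 1995 with doxycycline and 940 with both, against control signals of 2425, 1768 and 1894. Of the 3 arrays, the one with both agents was the only one whose treated signal lay below its control before normalisation. The log2 ratios were -0.46 with TNF, -0.71 with doxycycline and -1.76 with both (3.39-fold lower). Both over doxycycline gave -1.06, against the same probe SD of 0.222, and both over TNF gave -1.30. With the local background, both over doxycycline gave -0.75, short of 2-fold. The ratio with both lay 0.59 below the sum of the single ratios, within the probe SD of 0.856. With median centring, the ratios were 0.18 with TNF, -0.17 with doxycycline and -1.32 with both. In the authors' deposited values they were 0.29, -0.69 and -1.91, so the sign with TNF depended on the processing.

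C1GALT1, GALNT12 and B3GNT6, which start and extend the chains, stayed within 2-fold of control on every array. C1GALT1, which makes the core 1 disaccharide, had treated signals of 195 with TNF, 247 with doxycycline and 279 with both, against control signals of 116, 107 and 105. Its log2 ratios were 0.63, 0.31 and 0.43. GALNT12, an initiating enzyme of the colon, had treated signals of 56.0, 71.9 and 63.7 against 61.9, 53.4 and 52.8, with log2 ratios of 0.12, -0.17 and -0.30. B3GNT6, the core 3 enzyme, had treated signals of 42.4, 96.7 and 106 against 81.5, 68.6 and 66.3, and log2 ratios of -0.29, -0.15 and -0.09. A second B3GNT6 probe was not above background in any channel and was left out.

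ST6GALNAC1, the sialyl-Tn enzyme, had 2 probes that differed on the TNF array. The first had treated signals of 289 with TNF, 698 with doxycycline and 601 with both, against control signals of 660, 531 and 594. The second had 515 with doxycycline and 468 with both, against 332 and 312, and its treated spot was not well above background with TNF, against 402 in the control. The log2 ratios with TNF were -1.34 for the first probe and at or below -2.87 for the second (at least 7.29-fold lower at these settings, with the dim spot at its own fitted value). The first probe stood at -0.44 with doxycycline and -0.74 with both, and the second at -0.20 and -0.21. The gene means of -0.32 and -0.48 were past the probe SDs of 0.241 and 0.295 but short of 2-fold. With median centring they were 0.12 and -0.08.

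**Figure D2:**
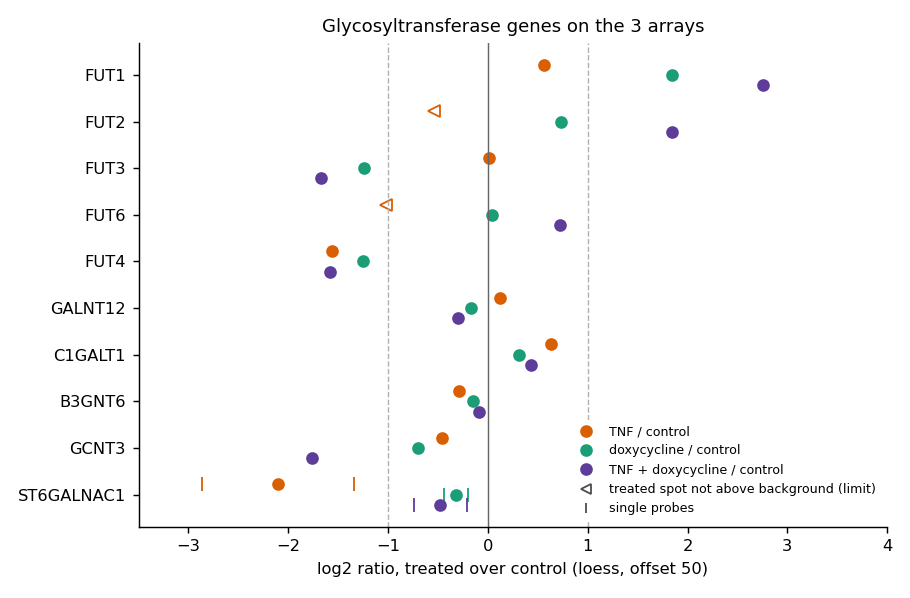
Log2 ratio of treated over control for each gene (horizontal axis, dashed lines at 2-fold) for TNF, doxycycline and both together, with open triangles for limits and ticks for single probes. The ST6GALNAC1 circle for TNF is a mean that includes its second probe, whose tick at -2.87 is also a limit. FUT1 reaches 2.76 and FUT2 1.85 with both agents, while FUT4, FUT3 and GCNT3 lie between -1.58 and -1.76.

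With TNF alone, 0 of the 10 genes were at least 2-fold higher and 3 were at least 2-fold lower (FUT4, FUT6 and ST6GALNAC1), where 1.80% of all 14529 genes were higher and 12.3% lower. The median was -0.38, against -0.01 over all genes, and it was 0.12 in the authors' deposited values, which are empty for FUT2 and FUT6 there. Over the settings tried, 2 to 4 genes were lower. On the same array, 5 of the 10 colon epithelial markers were at least 2-fold lower (median -1.08), against 0 with doxycycline and 0 with both. The summed treated signal of these markers was 70050 with TNF, 90765 with doxycycline and 83841 with both, against 42116, 40083 and 39464 in the controls. KRT18 and EPCAM made up most of these sums, which therefore hide the markers that were lower. With TNF, KRT18 had a treated signal of 38979 against 17629 in the control, and CDX1 76.5 against 1555. The part of the low level shared by many genes on the TNF array in the ratios of FUT4, FUT6 and ST6GALNAC1 was not tested. With TNF on top of doxycycline, which does not use the TNF array, FUT4 stood at -0.33, FUT6 at 0.69 and ST6GALNAC1 at -0.16.

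With doxycycline, 1 of the 10 was at least 2-fold higher (FUT1) and 2 were lower (FUT3 and FUT4), where 1.18% of all genes were higher and 0.406% lower. With both agents, 2 were higher (FUT1 and FUT2) and 3 lower (FUT3, FUT4 and GCNT3), where 3.17% and 2.13% of all genes were. The medians were -0.16 with doxycycline and -0.20 with both, against 0.01 and 0.00 over all genes. With both agents over doxycycline, FUT2 was higher and GCNT3 lower, where 1.18% and 0.909% of all genes were. With both agents over TNF, 4 were higher (FUT1, FUT2, FUT6 and ST6GALNAC1) and 2 lower (FUT3 and GCNT3), where 14.0% and 3.29% of all genes were. For FUT2 and FUT6 these differences rest on treated TNF spots that were not well above background, and over the settings tried they lay between 1.72 and 3.80 and between 1.29 and 2.73. The ST6GALNAC1 value of 1.63 averages 0.60 for the first probe, short of 2-fold, and 2.65 for the second, whose treated TNF spot was not well above background. Against the sum of the single log2 ratios, 4 genes were at least 2-fold above it with both agents (FUT2, FUT4, FUT6 and ST6GALNAC1) and 0 below it, where 14.0% and 5.11% of all genes were. These 4 are the genes that were lowest with TNF alone, and their values rest on that array. Comparisons that share an array are not independent of each other.

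**Figure D3:**
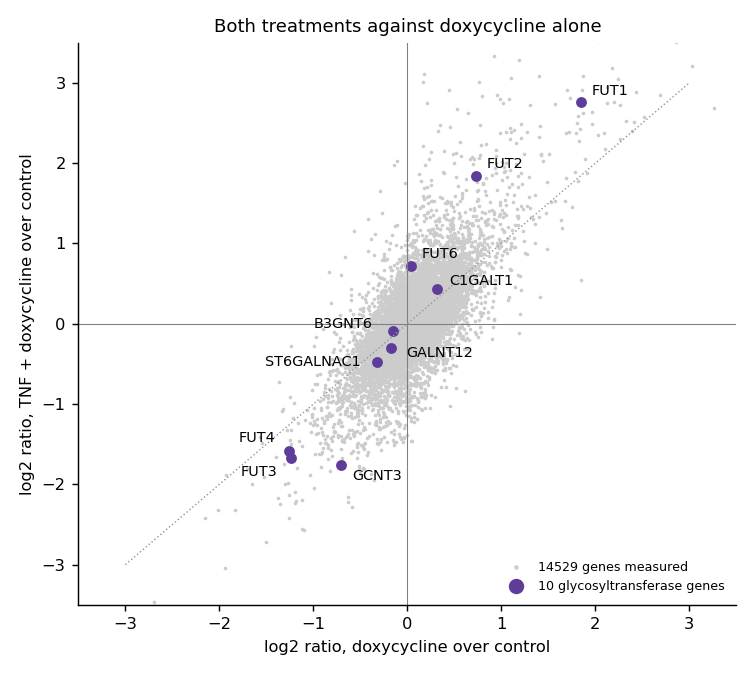
Log2 ratio with both agents (vertical) against that with doxycycline alone (horizontal) for the 14529 genes measured in grey and the 10 glycosyltransferase genes in purple, with the axes drawn over the central range. FUT1 and FUT2 lie above the dotted line of equal ratios, and FUT3, FUT4 and GCNT3 below it.

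In order of log2 ratio with both agents, the genes ran FUT1, FUT2, FUT6, C1GALT1, B3GNT6, GALNT12, ST6GALNAC1, FUT4, FUT3 and GCNT3. The gaps of 0.91 between FUT1 and FUT2, 1.12 between FUT2 and FUT6, 0.53 between C1GALT1 and B3GNT6, and 1.11 between ST6GALNAC1 and FUT4 exceeded the probe SD of 0.295. That SD is for a single ratio, and a gap between genes can vary more. All other gaps were 0.29 or smaller, so those neighbours were not separated. The genes nearest to FUT1 by Euclidean distance over the 3 log2 ratios were S100A10 (0.260), NOTCH2NL (0.445) and GMNN (0.496). Those nearest to FUT2 were EPB41L5 (0.321), FAM3C (0.345) and HINT3 (0.368), with the TNF ratio of FUT2 taken as fitted. Those nearest to GCNT3 were NPAS2 (0.188), MDGA2 (0.207) and NBL1 (0.292). Within a distance of 0.5 there were 3 genes for FUT1, 11 for FUT2 and 23 for GCNT3.

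Other enzymes and transporters of the pathway mostly stayed within 2-fold when both agents were given. Of 83 on the arrays 66 were measured. Of these, ST3GAL4 was higher and ST6GALNAC4 lower, and the median was -0.06. ST3GAL4, a sialyltransferase that contributes to sialyl Lewis structures, had a treated signal of 982 with both, against 201 in the control, and a log2 ratio of 1.28. It stood at -1.81 with TNF and 0.34 with doxycycline. ST6GALNAC4, which adds sialic acid to sialylated core 1 chains, had a treated signal of 183 against 309 in the control and a log2 ratio of -1.29, with 0.02 for TNF and -0.26 for doxycycline.

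By step, 0 of 15 other GALNT genes, 0 of 3 core enzymes, 0 of 12 chain-extending enzymes, 0 of 4 other fucosyltransferases, 0 of 6 genes of GDP-fucose supply and breakdown, and 0 of 11 blood group and sulfation genes were 2-fold higher or lower with both. The supply genes had a median of -0.29, and GMDS, an enzyme of GDP-fucose synthesis, stood at -0.14 with treated and control signals of 3116 and 1943. With TNF alone GMDS stood at -2.91, with signals of 383 and 2260. GFUS, which completes GDP-fucose synthesis after GMDS, stood at -5.15 with TNF, with a treated signal of 24.6 against 2339 in the control, and at -0.40 with both. POFUT1, which puts O-fucose on Notch receptors, stood at 0.12 with both and just past 2-fold lower with TNF, with a treated signal of 11.9 against 97.1 in the control. With doxycycline alone 0 of the 66 passed 2-fold, and with TNF alone 13 were lower and 0 higher, against the 12.3% of all genes that were lower.

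Among 8 measured mucin genes, the substrates of these enzymes, MUC13 was higher with both (1.32) and MUC2 lower (-1.48). MUC2, the main secreted gut mucin, stood at 1.28 with TNF and -1.55 with doxycycline, and MUC13, a membrane mucin, at -0.89 and 0.24.

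**Figure D4:**
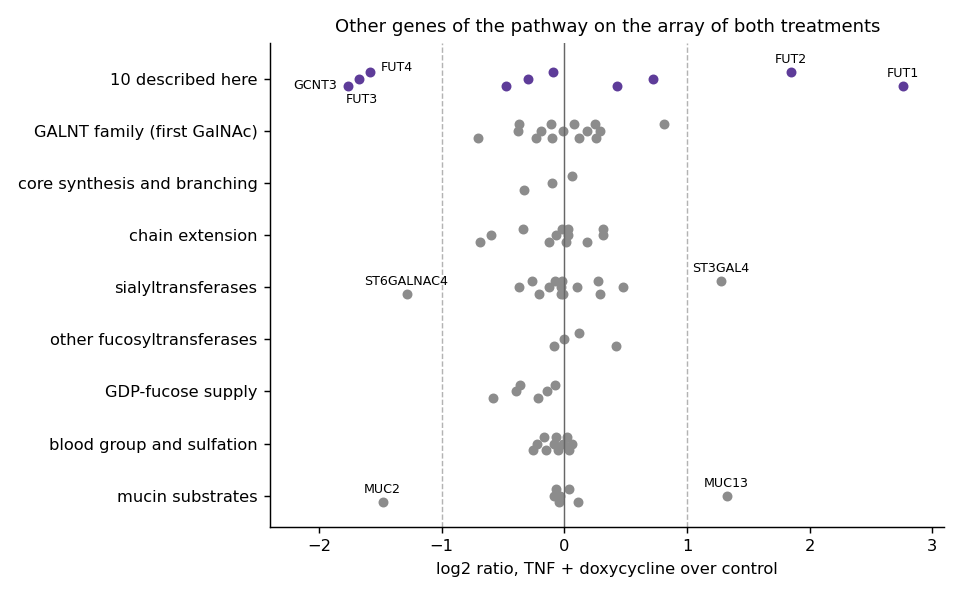
Log2 ratio with both agents over control (horizontal, dashed lines at 2-fold) for the 10 genes described here in purple and for the measured genes of the other lists in grey, one row per step of the pathway. Outside the 10 genes, ST3GAL4, ST6GALNAC4, MUC13 and MUC2 pass 2-fold.

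Across 9 other ways of processing, the ratio of FUT1 with both lay between 2.43 and 3.18, that of FUT2 between 1.34 and 3.08, that of FUT3 between -1.88 and -1.25 and that of GCNT3 between -1.91 and -1.32. Some of these ways could not move the ratios: Aquantile scaling leaves them unchanged, and filters or a choice among probes do not alter the value of a single-probe gene. FUT2 gave no value when probes had to be above background in both channels of every array. The ratio of FUT4 ranged more widely, between -2.61 and -0.21. Where arrays were centred on their median and not fitted by loess, the median of all genes moved to 0.14 with doxycycline and 0.13 with both, and GCNT3 with doxycycline stood at -0.17.

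**Figure D5:**
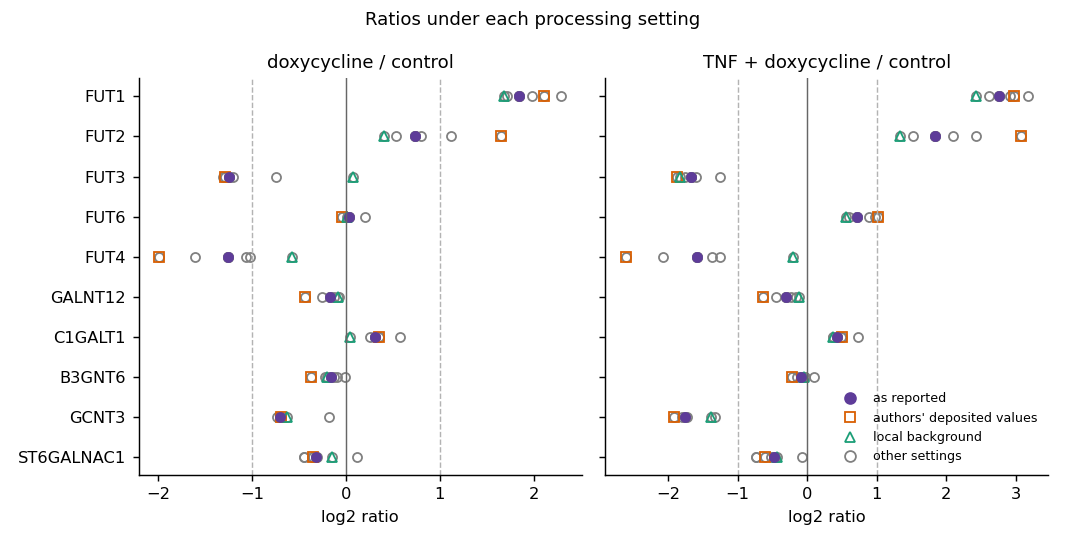
Log2 ratio of each gene under every processing setting, with doxycycline (left) and with both agents (right). Filled circles are the values reported, squares the values the authors deposited, and triangles the local background, where FUT3 with doxycycline lies at 0.08 and FUT4 with both at -0.21.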

How the data were processed

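The members and gene lists were chosen with earlier results of these data known. The deposited scanner files hold linear spot intensity medians of both dyes, with scans at several gains joined by least-squares lines, per the file headers. The series table holds log2 ratios that the authors deposited. All 18330, 19535 and 19605 of them (TNF, doxycycline, combined) were matched within 0.001 by log2 of Cy3 over Cy5 after subtracting the blank spots, centred on the array median, so positive values mean higher in treated cells.

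The local background followed the spot signal (r over probes of 0.917 to 0.960), so the 5% trimmed mean of 2680 blanks was subtracted instead. Signals were corrected by normexp (offset 50) and loess in limma 3.58.1 (R 4.3.3), and control spots had weight 0 in the fit. A spot was above background if it passed the blanks' 95th percentile. Probes that did so in the treated or control channel of all 3 arrays were retained, except 3 marked bad, and averaged per gene (16336 probes, 14529 genes). Of 24460 probes, 20236 had a symbol, of which 2899 were updated and 99 were unmatched and kept. A limit sets the bright channel against the higher of the dim spot and the dimmest signal above background, after loess and Aquantile, and is open to dye bias.

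With 1 array per condition no test was possible, and precision is limited by the number of arrays. All 10 members are named. From each other list up to 4 genes past 2-fold on the combined array were named, largest first. Genes nearest in the 3 ratios were named for 3 members. FUT5, GMDS, GFUS, POFUT1 and the treatment and cell markers were named after their values were seen. The procedure was tested on simulated arrays. Changes were placed there on brighter spots only, and the treated channel was the brighter one on every array. The simulation therefore does not cover dim genes or the dim treated channel of the TNF array.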

Additional observations from a re-analysis of the deposited data

Results flagged for a closer look

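For the same agent in the presence and absence of the other, 8 pairs of values in 7 genes had opposite signs. In 3 of these pairs at least 1 value was 2-fold or more, and none of these differences was tested. FUT2 had a log2 ratio of -0.63 for TNF over control (treated spot not well above background) and 1.11 for both agents over doxycycline. FUT6 stood at -1.03 and 0.69 in the same comparisons, again with the treated TNF spot not well above background. ST6GALNAC1 stood at -0.32 for doxycycline over control and 1.63 for both agents over TNF. The second value averages 0.60 for the first probe and 2.65 for the second, whose treated TNF spot was not well above background, and with median centring the doxycycline value was 0.12. In each case 1 of the readings rests on the TNF array, where 12.3% of all genes were at least 2-fold lower.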

How the results depend on the processing

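No paired analysis was possible because the groups share fewer than 2 replicate numbers, and no array could be left out of its own comparison. Of 135 recomputed counts and medians of the 10 genes, 118 were within 1.5 times the reported count or the probe SD of the reported median and 17 moved. The 118 include the TNF median of 0.12 in the authors' values. Not every setting could move every value. Aquantile leaves the ratios as they are. A filter or a choice among probes leaves the ratio of a single-probe gene as it was, or empty. Unmoved values of those kinds say nothing about stability. Of 534 recomputed single ratios, 466 moved by less than the probe SD, 67 moved by more and 1 that was past 2-fold changed sign: FUT3 with doxycycline, at 0.076 with the local background. Among those that moved by more, 4 values short of 2-fold also changed sign: FUT4 with both over doxycycline (0.36) and over TNF (0.89) with the local background, ST6GALNAC1 with doxycycline (0.12, median centring) and GCNT3 with TNF (0.29, authors' values). The cause was not tested. With the local background, the gene at least 2-fold lower with both over doxycycline was FUT3 (-1.90), not GCNT3 (-0.75). With doxycycline over control, 2 genes were higher with offset 16 and in the authors' values, and 1 (median centring) or 0 (local background) were lower. With both over control, requiring both channels above background left 1 higher and a median of -0.52. With both over doxycycline, 0 were higher with no background subtraction, the local background or the strict filter, and 2 in the authors' values. With both over TNF, 1 was higher with the strict filter and in the authors' values. Against the sum of single treatments, 4 were higher and 0 lower as reported; 2 were higher with the strict filter and in the authors' values, and 2 (median centring), 1 (local background) and 2 (authors' values) were lower. The strict filter removes FUT2 and FUT6, and the authors' table is empty for both on the TNF array. Each probe of ST6GALNAC1 by itself was tried after seeing the data. Over all genes, median centring gave 540 higher and 19 lower with doxycycline and 965 and 135 with both, against 171 and 59, and 460 and 310, as reported; the authors' values gave 514 and 203, and 1164 and 785. On the TNF array these were 262 and 1790 as reported, 761 and 1804 with median centring, and 1896 and 3063 in the authors' values.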
